A study of Homo sapiens with 6 samples.

Results

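Polycomb repressive complex genes were measured by RNA sequencing in cells labelled A549, a line established from a human lung adenocarcinoma. The genes described here are EZH1, EZH2, EED, SUZ12 and JARID2 of Polycomb repressive complex PRC2, and CBX2, CBX7, CBX8 and BMI1 of PRC1. They are 9 of the 58735 gene identifiers in the count tables, chosen by symbol, and all 9 had enough counts to be tested. The cells received B35, named in the series as an inhibitor of the histone demethylase LSD1, at 2 µM for 72 h in 3 libraries, or were left untreated for the same 72 h in 3 libraries. Both groups are labelled wild type and grew in DMEM with serum. No solvent is named for the untreated cells. Nothing in the labels ties libraries to separate cultures, and p-values therefore cover the spread among these libraries, which may be technical.

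PRC2 places methyl groups on lysine 27 of histone H3 through its catalytic subunit EZH2 or EZH1, which needs EED and SUZ12 to be active. Canonical PRC1 reads that mark through the chromodomain of a CBX protein and compacts chromatin, while its RING and PCGF subunits, BMI1 among them, form the ligase that ubiquitinates histone H2A. The system keeps developmental genes silent, and in proliferating cells it also represses the CDKN2A and CDKN2B cell cycle inhibitors.

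Library totals ran from 17209863 to 18530670 counts with B35 and from 17141478 to 18398450 counts in controls. B35 replicate 1 stood apart from the other B35 libraries on the second principal component, which held 20.9% of the variance of log2 expression, and 5.2% of its counts were mitochondrial, against 3.52% to 4.35% in the other libraries. The epithelial keratins KRT8 and KRT18 were abundant in all libraries (at least 430.1 CPM, the count scaled by library size), although KRT8 fell 1.49-fold (edgeR adjusted p = 0.00611). Of the 12 A549 and airway markers 11 were tested, and 4 rose and 2 fell, while 15.4% of all genes tested passed. The rises included AKR1C1, an aldo-keto reductase (2.38-fold), the epithelial adhesion protein EPCAM (2.14-fold) and N-cadherin, CDH2 (1.46-fold), with edgeR adjusted p = 0.000407, 0.00248 and 0.0103. Without control replicate 1 or 3 the list had 2 rises and 1 fall. Over all genes 1079 and 881 were called in these settings, against 2276 with all libraries. Of 5 leukocyte markers 1 had enough counts to be tested, and it did not pass. Of 5 fibroblast and endothelial markers 3 were tested and none passed, with summed levels of 20.7 to 22.9 CPM with B35 and 27.9 to 29.1 CPM in controls, whose part in the results was not tested. All 3 had log2 fold changes below 0, and for 2 every B35 library lay below every control, as for 17.5% of all genes tested. With offsets for GC content and length 2 were called lower, while 12.2% of all genes were. Some markers went against the A549 label. A549 is known to have lost CDKN2A and MTAP by deletion, yet CDKN2A had 2041 to 3370 counts with B35 and 2111 to 2574 in controls, and MTAP had 414 to 458 and 437 to 466. ALDH1A1 and AKR1B10, detoxifying enzymes for which A549 is known as a high expresser, had 5 to 14 and 8 to 15 counts with B35, and 1 to 6 and 11 to 26 in controls. AKR1C1 and NQO1, which A549 is also known to express highly, had 542 to 605 and 4075 to 4805 counts with B35, and 198 to 277 and 4952 to 5372 in controls. The cells are called by their label only. CDKN2A, MTAP, ALDH1A1, AKR1B10 and NQO1 were picked out after their values were seen.

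The promoters of 3 members are shown because these genes had the clearest rise (CBX7), the clearest fall (BMI1) and the highest level (EZH2). Each is a window of 300 bases from RefSeq (build GRCh38.p14), from 250 bases before to 50 after an annotated start, and capitals mark a match to the E2F motif TTTNNCGC or the E-box CACGTG on either strand. The windows are chr22:39152631-39152930 (minus strand, CBX7), chr10:22320849-22321148 (plus strand, BMI1) and chr7:148884242-148884541 (minus strand, EZH2).
CBX7: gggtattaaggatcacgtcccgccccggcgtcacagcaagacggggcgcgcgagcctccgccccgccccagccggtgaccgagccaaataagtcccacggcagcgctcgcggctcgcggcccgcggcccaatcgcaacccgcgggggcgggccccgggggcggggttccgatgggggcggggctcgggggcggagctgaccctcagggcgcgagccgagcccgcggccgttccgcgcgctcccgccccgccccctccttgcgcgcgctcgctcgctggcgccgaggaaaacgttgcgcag
BMI1: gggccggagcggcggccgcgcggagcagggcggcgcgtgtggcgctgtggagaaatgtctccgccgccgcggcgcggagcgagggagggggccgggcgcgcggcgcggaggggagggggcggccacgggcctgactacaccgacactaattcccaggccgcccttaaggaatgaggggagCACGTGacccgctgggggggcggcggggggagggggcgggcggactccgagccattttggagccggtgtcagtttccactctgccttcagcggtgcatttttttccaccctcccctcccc
EZH2: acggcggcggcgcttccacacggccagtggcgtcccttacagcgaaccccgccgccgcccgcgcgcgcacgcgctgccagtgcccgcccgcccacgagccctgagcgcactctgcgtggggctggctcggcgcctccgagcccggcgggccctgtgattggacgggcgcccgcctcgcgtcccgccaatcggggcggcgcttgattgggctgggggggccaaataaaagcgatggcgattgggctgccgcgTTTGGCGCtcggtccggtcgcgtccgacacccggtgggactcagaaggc
The EZH2 window shown holds an E2F match, TTTGGCGC, that starts at base 2 after the annotated start, and the BMI1 window shown holds an E-box that starts 70 bases before it. The CBX7 window holds neither run of letters. It has 50 CG dinucleotides, the BMI1 window 36 and the EZH2 window 46, against a median of 14 over all windows. EZH2 and BMI1 each have a second window, at chr7:148883436-148883735 and chr10:22321706-22322005, with neither motif. RefSeq windows were found for 7 of the 9 members, 10 windows in all, and 3 of these held the E2F motif (in EZH2, SUZ12 and EZH1) and 1 the E-box, against 6.89% and 7.26% of all 35116 windows. CBX2 and CBX8 had no entry. Both motifs hold a CG, and the member windows had 16 to 65 CG dinucleotides, against the median of 14. The shares over all windows are therefore not a like comparison. These matches describe letters and show no binding.

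Of the 9 members, 1 rose with B35 and 1 fell, and 7 did not pass the test (adjusted p under 0.05 over 14773 genes in the quasi-likelihood test of edgeR). CBX7, a chromodomain reader of PRC1, was 1.65-fold higher, and BMI1, the PCGF subunit that activates the H2A ligase, was 1.37-fold lower. Over all genes tested 15.4% passed, 8.82% higher and 6.59% lower, so the members' share of 22.2%, 11.1% in each direction, lies near that of all genes. The median log2 fold change of the members was −0.15, against 0.0067 over all genes tested. All B35 libraries lay above all controls for CBX7 and below them for EZH2, EED and BMI1, an order that 18.8% and 17.5% of all tested genes also showed. The other members overlapped between the groups. The members called numbered 3 without B35 replicate 1, of which 2 were lower, while 22.2% of all genes passed, 12.1% higher and 10.1% lower. With DESeq2 they numbered 4, 3 of them lower, while 17.1% of all genes passed (9.24% higher and 7.9% lower). They were also 4, 3 of them lower, without a filter on low counts (10.4% of all genes, 5.85% higher and 4.59% lower) and with the replicate number as a term (19.3%, 10.8% and 8.54%). With offsets for GC content and length they were 3, 2 of them lower (25.7%, 13.4% and 12.2%). Without control replicate 1, control replicate 3, B35 replicate 2 or B35 replicate 3 only CBX7 was called among the members, and over all genes 1079, 881, 1646 and 1590 were called in these settings, against 2276 with all libraries. Levels are in CPM unless FPKM is named.

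**Figure D1:**
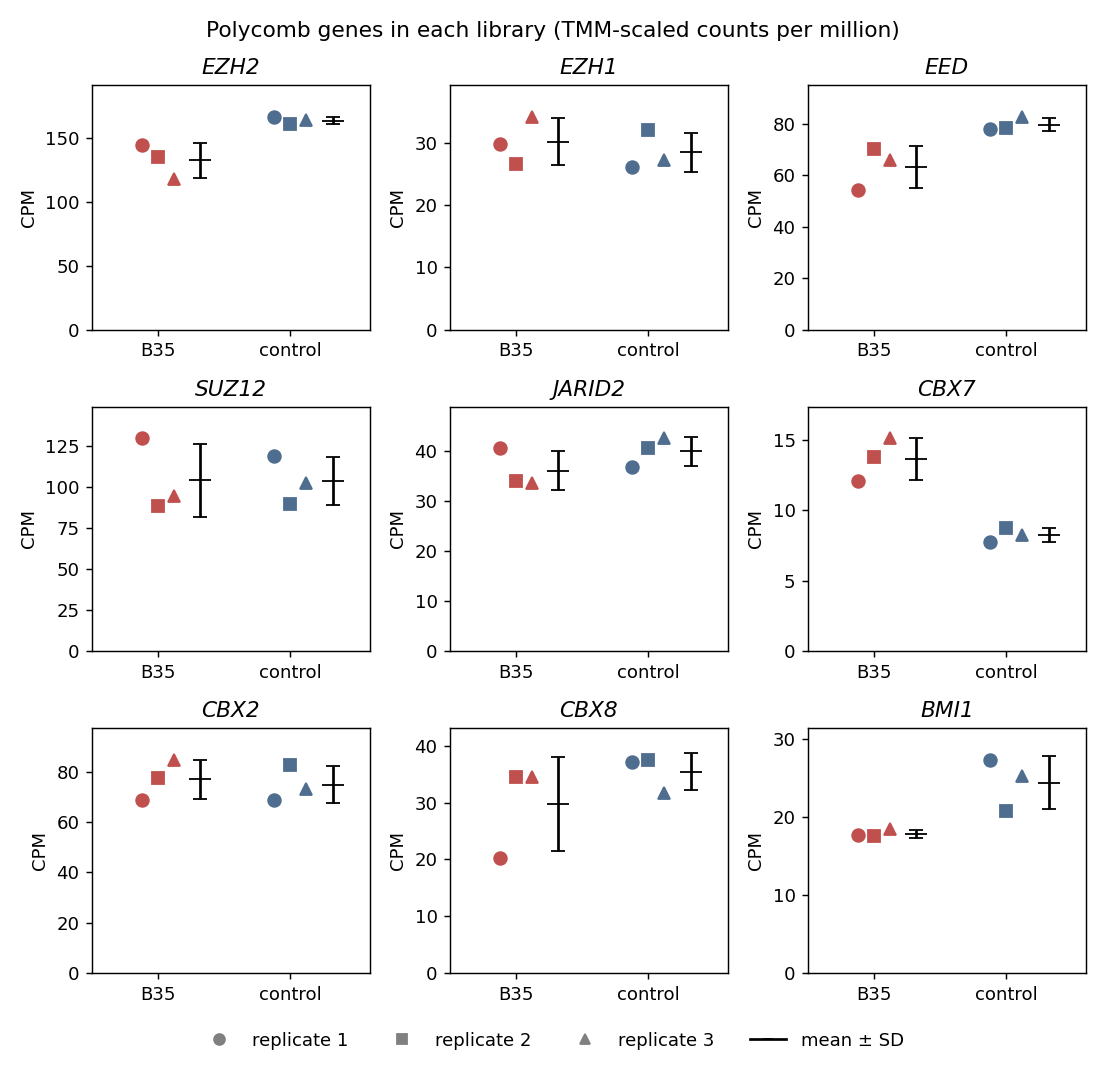
Level of each member in CPM (linear axis from 0) in the 3 B35 libraries, left, and the 3 control libraries, right, with symbols for the replicate number and the mean ± SD beside them. CBX7 is higher in every B35 library, EZH2, EED and BMI1 are lower in every B35 library, and B35 replicate 1 lies apart in CBX8, SUZ12 and EED.

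EZH2, the main methyltransferase of PRC2 in dividing cells (ENSG00000106462, chromosome 7, 148807383 to 148884321, minus strand, hg38), had 145, 135 and 118 CPM in the B35 libraries and 167, 161 and 164 CPM in the control libraries. Every B35 library lay below every control. The mean was 133 ± 13.8 CPM with B35 and 164 ± 2.96 CPM in controls (SD, n = 3 each), a log2 fold change of −0.30 ± 0.098 (SE), and the test was missed (edgeR adjusted p = 0.0589). EZH2 passed without B35 replicate 1, at a log2 fold change of −0.37 (edgeR adjusted p = 0.00859), and also with DESeq2 (0.0393) and with offsets for GC content and length (0.0148).

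EZH1, the paralogue of EZH2 that is less active and found more in resting cells (chromosome 17, 42700275 to 42745049), had 29.8, 26.6 and 34.2 CPM with B35 and 26.1, 32.0 and 27.3 CPM in controls. The groups overlapped, and the 95% confidence interval of its log2 fold change ran from −0.20 to 0.37 (edgeR adjusted p = 0.707). Per length of merged exons, the authors' FPKM of EZH2 was 7.52, 7.86 and 5.33 times that of EZH1 in the B35 libraries and 9.86, 7.76 and 9.28 times in the controls. The ratios overlapped, since B35 replicate 2 lay above control replicate 2. The log2 ratio of EZH1 to EZH2 was −2.77 ± 0.308 with B35 and −3.16 ± 0.18 in controls (SD, n = 3 each), a difference of 0.39 that did not pass a two-sided exact permutation test (p = 0.2, where 3 against 3 libraries cannot go below 0.1). That difference was 0.46 without B35 replicate 1 and 0.21 without B35 replicate 3.

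EED, the subunit that binds the methylated histone tail and stimulates the enzyme (ENSG00000074266, chromosome 11, 86244544 to 86278813), had 54.3, 70.1 and 65.8 CPM with B35 and 78.1, 78.3 and 82.7 CPM in controls. All B35 libraries were below the controls, with replicate 1 lowest. For EED the log2 difference was −0.33 ± 0.11 (SE), short of the threshold (edgeR adjusted p = 0.0636). It was −0.23 without B35 replicate 1 (0.0644), and EED passed with DESeq2 (0.045). SUZ12, the scaffold of the complex (chromosome 17, 31937018 to 32001045), had 130, 88.2 and 94.5 CPM with B35 and 119, 90.0 and 102 CPM in controls. Replicate 1 was the highest library of each group and the groups overlapped fully. The confidence interval ran from −0.33 to 0.34 on the log2 scale (edgeR adjusted p = 0.99). The value without B35 replicate 1 was −0.19 (0.25). SUZ12P1, a pseudogene that resembles part of SUZ12 and could share reads with it, had 139 to 190 counts with B35 and 155 to 203 in controls. JARID2, an accessory subunit that helps to bring PRC2 to its sites (chromosome 6, 15246296 to 15522040), had 40.4, 34.0 and 33.5 CPM with B35 and 36.7, 40.4 and 42.4 CPM in controls, which overlap. Its interval ran from −0.40 to 0.10 (edgeR adjusted p = 0.407).

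CBX7 (ENSG00000100307, chromosome 22, 39120167 to 39152674, minus strand) had 214, 248 and 286 counts in the B35 libraries and 139, 158 and 139 in the controls, or 12.1, 13.8 and 15.1 CPM against 7.75, 8.75 and 8.27 CPM. Every B35 library was above every control. The mean was 13.6 ± 1.49 CPM with B35 and 8.25 ± 0.499 CPM in controls (SD, n = 3 each), a log2 fold change of 0.73 ± 0.14 (SE, edgeR adjusted p = 0.00705) with a 95% interval of 1.33- to 2.05-fold. The call was kept in each of the 15 other settings, with adjusted p between 0.000662 and 0.0413. Of its exon bases, 21.6% are shared with the antisense gene AL031846.2 and the pseudogene COX5BP7, and the strand setting of the counting is not given. AL031846.2 had 6 to 8 counts with B35 and 4 to 12 in controls, and COX5BP7 is listed at 0 in every library. All exon bases of COX5BP7 are shared with CBX7, so this 0 does not show that COX5BP7 was silent.

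CBX2 and CBX8 are neighbours on chromosome 17 (79778132 to 79787983, plus strand, and 79792132 to 79801683, minus strand). CBX2, which compacts nucleosomes, had 68.8, 77.4 and 84.6 CPM with B35 and 68.6, 82.8 and 73.0 CPM in controls, with a confidence interval from −0.20 to 0.28 on the log2 scale (edgeR adjusted p = 0.847). CBX8, a further chromodomain reader, had 20.2, 34.5 and 34.6 CPM with B35 and 37.1, 37.5 and 31.8 CPM in controls. A single library, B35 replicate 1, was low, and the other libraries of both groups overlapped. On the log2 scale the difference was −0.25 ± 0.18 (SE, edgeR adjusted p = 0.385), and −0.04 without that library (0.82).

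BMI1 (ENSG00000168283, chromosome 10, 22321211 to 22331484, plus strand) had 312, 315 and 350 counts in the B35 libraries and 489, 374 and 424 in the controls, or 17.6, 17.5 and 18.4 CPM against 27.3, 20.7 and 25.2 CPM. All B35 libraries were below the lowest control. The mean was 17.9 ± 0.519 CPM with B35 and 24.4 ± 3.35 CPM in controls (SD, n = 3 each), a log2 fold change of −0.45 ± 0.13 (SE, edgeR adjusted p = 0.0374). Leaving out B35 replicate 2, B35 replicate 3, control replicate 1 or control replicate 3 ended the call (edgeR adjusted p = 0.0936, 0.071, 0.149 and 0.143), with log2 fold changes of −0.36 to −0.47. The read-through gene COMMD3-BMI1 overlaps BMI1 in 23.3% of the exon bases of BMI1. It shares all of its own exon bases with BMI1 and COMMD3 and is listed at 0 in all libraries, which does not show that it was silent.

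**Figure D2:**
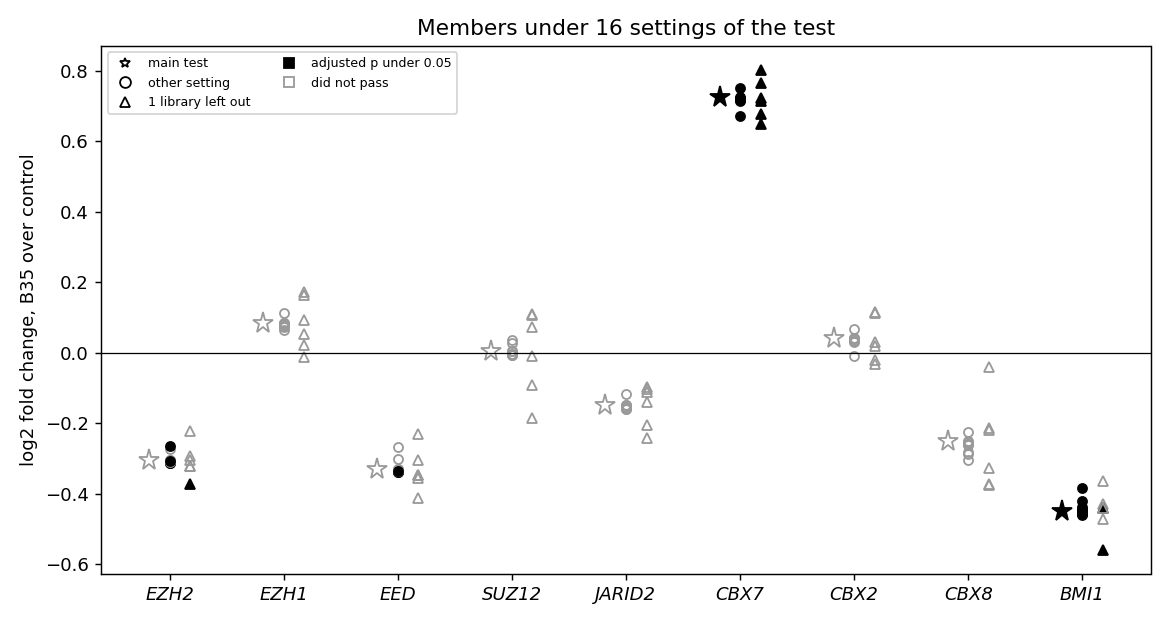
Log2 fold change (B35 over control) of each member in the main test (stars), in other settings (circles) and with 1 library left out (triangles), filled where the adjusted p is under 0.05. CBX7 is filled in all 16 settings, BMI1 loses the call in 4 of them, and EZH2 and EED pass in 5 and 3.

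Levels between members can be compared only per length. By the authors' FPKM, EZH2 was highest in both groups (25.5 to 31.6 FPKM with B35 and 35.3 to 36.6 in controls), followed by SUZ12 and CBX2, whose ranges overlapped in each group (means of 15.7 and 13.3 FPKM with B35, and 15.8 and 13.1 FPKM in controls). EED, CBX8 and JARID2 came next. With B35 the range of CBX8 overlapped those of its neighbours EED and JARID2, while in controls it overlapped neither. BMI1 and EZH1 overlapped with B35 (4.05 to 4.22 and 3.78 to 4.78 FPKM), whereas in controls BMI1 was above EZH1 without overlap (means of 5.67 and 4.05 FPKM) and overlapped JARID2. CBX7 was lowest in both groups, at 1.8 ± 0.192 FPKM with B35 and 1.1 ± 0.0663 FPKM in controls (SD, n = 3 each). The FPKM lengths merge every annotated exon, so a gene with long, little-used exons has an understated level.

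Each PRC1 complex holds 1 PCGF protein. BMI1 made up 9.27%, 8.52% and 9.50% of the summed FPKM of the 6 PCGF genes with B35 and 13.0%, 11.4% and 14.0% in controls, without overlap. The PCGF share was computed after the values were seen and was not tested. PCGF2, the closest paralogue of BMI1, was at 36.4, 48.9 and 45.9 CPM with B35 and 39.1, 33.4 and 29.3 CPM in controls. It did not pass (edgeR adjusted p = 0.104), although it did without B35 replicate 1 (0.0135) and without the filter on low counts (0.049). It shares 45.7% of its exon bases with other genes.

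**Figure D3:**
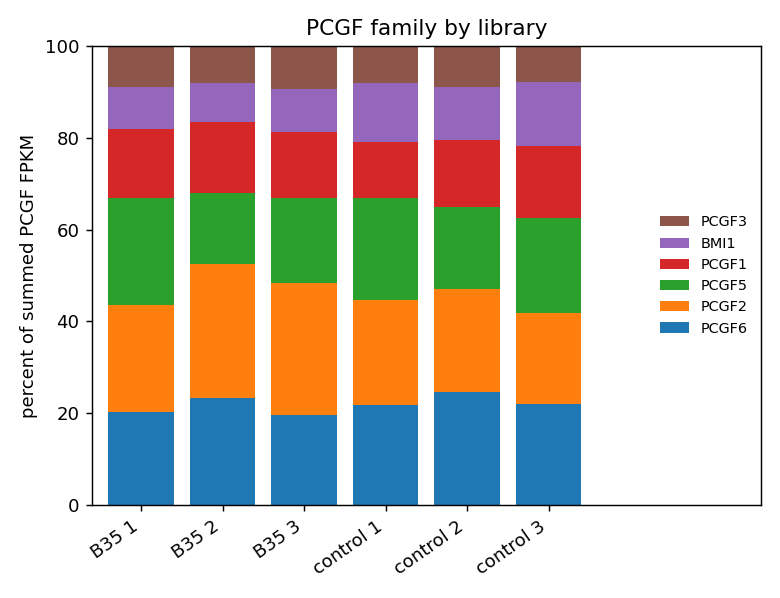
Percent of the summed FPKM of the 6 PCGF genes taken by each gene in each library, as stacked bars from 0 to 100%, with the B35 libraries left of the controls. BMI1 takes 8.52% to 9.50% with B35 and 11.4% to 14.0% in controls.

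The remaining genes of the system were the other known subunits of PRC2, PRC1 and the deubiquitinase PR-DUB and the 2 demethylases that remove the PRC2 mark, 50 genes of which 47 were tested. Of these, 2 rose and 4 fell, or 12.8%, against the 15.4% of all genes. Their median log2 fold change was 0.0093. Both histone-binding subunits shared by PRC2 and other complexes fell. RBBP4 was 1.3-fold lower, at 223, 223 and 198 CPM with B35 and 297, 261 and 283 CPM in controls (edgeR adjusted p = 0.0194), and RBBP7 was 1.24-fold lower, at 380, 402 and 378 CPM and 492, 471 and 475 CPM (edgeR adjusted p = 0.0277). Neither group pair overlapped, and RBBP4 shares 18% of its exon bases with other genes. None of the other 7 tested accessory genes of PRC2 passed, and PHF19, a Polycomb-like protein, was nearest (log2 fold change −0.25, edgeR adjusted p = 0.0674). PHF19 passed with the offsets (0.0229) and when B35 replicate 1 was left out (0.0369).

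Of 27 tested PRC1 subunits, 1 rose and 2 fell. BCORL1, a corepressor of the variant complex with PCGF1, was 1.86-fold higher, at 11.4, 13.5 and 13.8 CPM with B35 and 6.75, 5.92 and 8.21 CPM in controls (edgeR adjusted p = 0.00501), a call kept in all 15 alternatives. E2F6 and L3MBTL2, members of the variant complex with PCGF6, were 1.35-fold and 1.3-fold lower. E2F6 had 17.3, 19.9 and 17.3 CPM with B35 and 23.4, 25.0 and 24.9 CPM in controls (edgeR adjusted p = 0.0288), and L3MBTL2 had 21.5, 18.8 and 20.6 CPM and 25.8, 26.4 and 27.1 CPM (edgeR adjusted p = 0.0377). The groups did not overlap for any of these genes. The catalytic subunits RING1 and RNF2 did not pass (edgeR adjusted p = 0.248 and 0.859), although RING1 did without B35 replicate 1, at a log2 fold change of 0.33 (0.0212). None of 9 tested genes of the opposing deubiquitinase PR-DUB passed. OGT and HCFC1, its members with the highest CPM, had log2 fold changes of −0.32 and −0.37 (edgeR adjusted p = 0.0657 and 0.0654). OGT passed without the filter (0.0253), with DESeq2 (0.0381), with the offsets (0.0189) and without B35 replicate 1 (0.0108). HCFC1 passed without the filter (0.00907), with DESeq2 (0.0313), with the replicate number as a term (0.024), with the offsets (0.00349) and without B35 replicate 3 (0.0233). KDM6B, which removes the PRC2 mark, was 1.39-fold higher, at 29.8, 31.5 and 35.5 CPM with B35 and 21.1, 23.6 and 25.0 CPM in controls (edgeR adjusted p = 0.0211), while KDM6A did not pass. Left out in turn, each library moved the count of these 47 genes called to between 1 and 13. It was 13 without B35 replicate 1, of which 6 rose and 7 fell, and 1, 2 and 1 without control replicates 1, 2 and 3, and 2 without B35 replicate 3. Without B35 replicate 1, 22.2% of all genes tested passed. KDM6B and L3MBTL2 kept their calls only where B35 replicate 1 was the library removed (edgeR adjusted p = 0.00619 and 0.0149). Removing any other library ended both calls (0.05004 to 0.0947 for KDM6B, 0.0758 to 0.155 for L3MBTL2). L3MBTL2 also missed the threshold with all libraries under upper-quartile scaling (0.0552). The falls of RBBP7 and E2F6 ended on removal of any control or of B35 replicate 3. That of RBBP4 ended on removal of B35 replicate 3 or of control 1 or 3. Signs did not change in these fits.

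**Figure D4:**
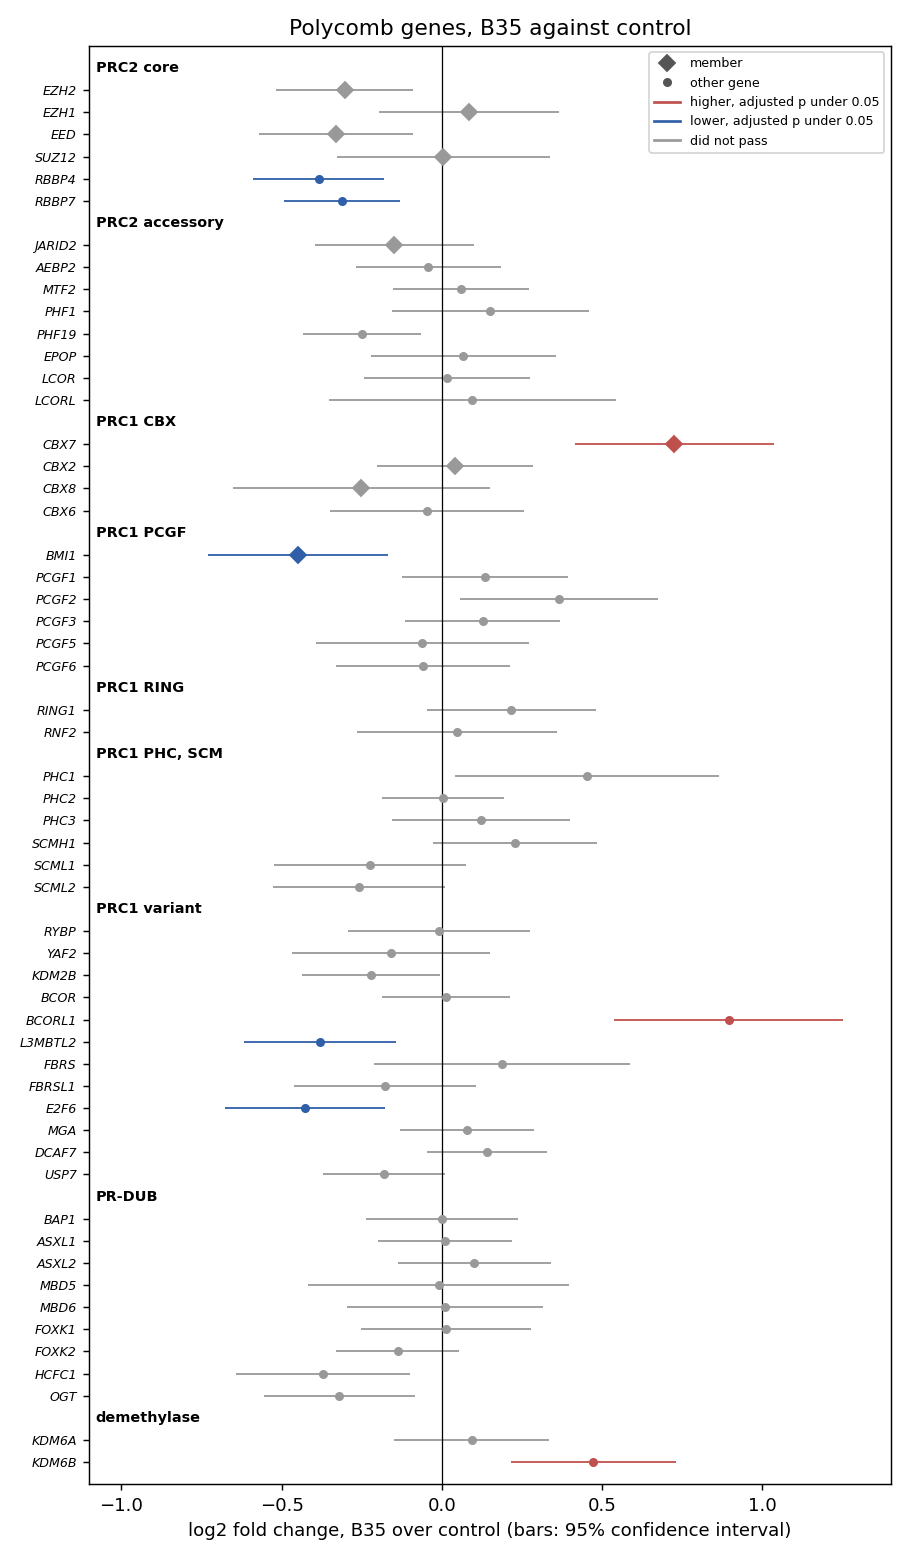
Log2 fold change (B35 over control) with its 95% confidence interval for the 9 members (diamonds) and other tested Polycomb genes (circles), grouped by complex, with both demethylases last. Red genes rose and blue genes fell in the test over all genes, and grey genes did not pass.

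Genes that Polycomb is known to silence were read from 3 lists, chosen with earlier results of these data known. Their shares therefore only describe these data. At the CDKN2 locus on chromosome 9, CDKN2B, an inhibitor of cyclin D kinases, had 19.1, 21.5 and 24.3 CPM with B35 and 12.4, 13.1 and 11.8 CPM in controls. It was 1.74-fold higher without overlap (log2 0.80 ± 0.13 SE, edgeR adjusted p = 0.00309). CDKN2A had 115, 168 and 178 CPM with B35 and 144, 141 and 126 CPM in controls. The groups overlapped (edgeR adjusted p = 0.483), with B35 replicate 1 lowest, and without that library CDKN2A was higher (log2 0.33, 0.0152). Of 24 genes known as EZH2-silenced in tumours 19 were tested, and 6 rose and 1 fell. These are 31.6% higher and 5.26% lower, against 8.82% higher and 6.59% lower over all genes. FBXO32, a ubiquitin ligase subunit, was 2.5-fold higher, TIMP3, an inhibitor of metalloproteinases, 1.56-fold higher, and DKK1, a secreted antagonist of WNT, 1.53-fold higher (edgeR adjusted p = 0.00233, 0.00215 and 0.00355). PEBP1, an inhibitor of RAF kinase, was 1.39-fold lower (0.00624). Leaving out single libraries gave 4 to 8 rises, with 8 without B35 replicate 1 and 4 without control replicate 1, control replicate 2, B35 replicate 2 or B35 replicate 3, while the genes called over all ran from 881 to 3342. Of 43 developmental transcription factors and signals marked by PRC2 in stem cells, 25 had enough counts to test, and SOX9 was the only 1 that passed, or 4%, against 15.4% of all genes. The list had 2 rises without B35 replicate 1, where 12.1% of all genes were higher. With the GC and length offsets it had 1 rise and 2 falls, while 13.4% of all genes were higher and 12.2% lower. All B35 libraries lay above all controls for 6 of the tested genes of this list and below them for 4. Over all genes tested 18.8% and 17.5% showed these orders. SOX9 had 8.14, 6.16 and 6.75 CPM with B35 and 2.40, 2.38 and 3.21 CPM in controls, 2.63-fold higher (edgeR adjusted p = 0.00206). The median log2 fold change was 0.21 for the EZH2-silenced list and −0.0059 for the developmental list.

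EZH2 and EED are known targets of E2F factors, so genes of the cell cycle are set beside them. The EED promoter window lacked the E2F motif. Those of SUZ12 and EZH1 held it, and these genes did not pass (edgeR adjusted p = 0.99 and 0.707). Of 24 tested E2F and proliferation genes, 11 fell and none rose, or 45.8%, against 6.59% lower and 8.82% higher over all genes. This list too was chosen with earlier results of these data known. The replication genes PCNA and CDC6 were 1.4-fold and 1.43-fold lower, the cell cycle factor MYBL2 1.39-fold and UHRF1 1.53-fold lower (edgeR adjusted p = 0.00562, 0.00422, 0.00422 and 0.00482). Their median log2 fold change was −0.24, and the mitotic genes MKI67, TOP2A and PLK1 did not pass, although PLK1 was higher without B35 replicate 1 (log2 0.27, edgeR adjusted p = 0.0364). The falls numbered 12, 8 and 7 without B35 replicates 1, 2 and 3, and 5, 7 and 4 without control replicates 1, 2 and 3. The genes lower over all numbered 1520, 719, 633, 418, 499 and 294 in these settings, against 973. Without B35 replicate 1 the list also had 1 rise, while 12.1% of all genes were higher. With offsets for GC content and length it had 13 falls and 1 rise, while 12.2% of all genes were lower and 13.4% higher. The summed level of the list was 4490 to 4559 CPM with B35 and 5033 to 5211 CPM in controls. Whether proliferation has a part in the EZH2 and EED values was not tested. Fewer cells with a transcript and less of it per cell cannot be told apart in these bulk libraries.

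By Pearson correlation of log2 CPM over the 6 libraries among 9547 other protein-coding genes, the genes most like CBX7 were CACNB3, a calcium channel subunit, CALCOCO1 and WDR54, with r of 0.999, 0.997 and 0.997. Those most like BMI1 were LTV1, a ribosome assembly factor, FBXO45 and RBM24, with r of 0.994, 0.991 and 0.99. LTV1 was lower in the test (edgeR adjusted p = 0.0162), while FBXO45 and RBM24 did not pass (0.179 and 0.248). LTV1 shares 34.8% of its exon bases with other genes. In all, 320 genes exceeded an r of 0.95 with CBX7 and 54 with BMI1. The libraries, their scaling and the group difference are common to all these genes, so the values only describe likeness.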

How the data were processed

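Per the labels' protocols, RNA was taken with TRIzol and made into libraries with a NEBNext Ultra kit. The submitters' processing notes list HISAT2 2.0.5, featureCounts 1.5.0-p3 and the build hg38. The authors deposited a whole-number count and an FPKM value per gene. FPKM was used for levels between genes, and for ratios and shares of genes within a library that were compared between the groups. It matches counts over merged exon length at 0.982 to 1.05 times the library total. GENCODE release 29 gave symbols and coordinates for all 58735 identifiers.

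Counts were tested with edgeR 4.0.16 in R 4.3.3 (filterByExpr with a minimum count of 10 and total of 15, TMM scaling, quasi-likelihood test, two-sided, Benjamini-Hochberg over 14773 genes), checked on simulated data. There it recovered 44.8% of 1.5-fold and 76.1% of 2-fold changes, with 12 false calls. Far fewer genes were changed there than passed in these data, and none by less than 1.5-fold. These shares are therefore not the power of the test here. A gene that did not pass may still differ. Pairs of replicates exceeded counting noise (4.46 to 32.3 chi-square units per degree of freedom), and each library was counted as 1 sample. The EZH1 to EZH2 ratio was compared by exact permutation. Some results, a share within the CBX family among them, are not reported here. The depth sets counting error only, and the 9 members had 139 to 2987 counts per library. Alternatives were other scalings, filters, DESeq2 1.42.0, limma-voom (3.58.1), robust dispersion, the replicate number as a term, GC and length offsets (loess span 0.3) and each library left out. Members and lists were chosen with earlier results of these data known. Beyond the members, named genes are up to 4 per list by adjusted p, or the 2 highest where none passed. PCGF2, PHF19, KDM6A, KRT18, NQO1, RING1, RNF2, MKI67, TOP2A and PLK1, and CDKN2A, MTAP, ALDH1A1 and AKR1B10, were named after their values were seen. The nearest genes in likeness were taken by correlation for the members with the smallest p in each direction, at a mean of 10 CPM or more.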

Additional observations from a re-analysis of the deposited data

How the results depend on the processing

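CBX7 kept its call and direction in all 15 alternatives. Counts of called genes moved more. The members called numbered 4, of which 3 were lower, without a filter beyond 1 count, with DESeq2 and with the replicate block, where EZH2 and EED joined CBX7 and BMI1. They numbered 3, with 2 lower, with GC and length offsets, where EZH2 joined, and 1 to 3, with 0 to 2 lower, when 1 library was left out. The other Polycomb genes called, both demethylases included, numbered 10, with 8 lower, under GC and length offsets and 1 to 13, with 1 to 6 higher and 0 to 7 lower, with 1 library left out. Over all genes 3791 passed with the offsets and 881 to 3342 with 1 library left out, against 2276 in the main test. The cause of these differences was not tested.

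Of the members that did not pass, some changed sign around 0. The log2 fold change of SUZ12 was −0.0040 with relative log expression scaling, −0.0071 without the filter, −0.0040 with DESeq2, −0.0075 with limma-voom, −0.0064 with the replicate block and −0.19 to 0.11 with 1 library left out. That of CBX2 was −0.0098 with the offsets and −0.032 to 0.12 with 1 library left out, and that of EZH1 −0.013 to 0.17 with 1 library left out. With 1 library left out RNF2 ran from −0.058 to 0.17 and KDM6A from −0.012 to 0.14. The EZH1 to EZH2 ratio difference ran from 0.21 to 0.50 with 1 library left out and did not change sign.

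The labels do not say whether replicate numbers pair the libraries. The correlation of deviations from the group means was 0.163, 0.0162 and −0.063 for the same-numbered libraries. B35 replicates 1 and 2 each correlated best with the control of the same number, and B35 replicate 3 with control replicate 2 (0.249). Deviations cancel out within each group, so these values depend on one another and cannot decide whether the libraries are paired. With the replicate block, 2855 genes were called, against 2276 without it.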
